A study of Schizosaccharomyces pombe with 21 samples.

Results

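The genes described here encode the factors that start, elongate and end translation in the fission yeast Schizosaccharomyces pombe. They are the protein-coding genes whose standard symbol begins with tif, tef or eft followed by a digit, together with sup35 and sup45. By this rule 35 of the 6988 gene identifiers with counts were members, 34 by symbol and sup45 by synonym, and the rule used names only. Following the product names, the 35 genes comprise 2 for eIF1A, 3 for eIF2, 4 for eIF2B, 8 for eIF3, 4 for the cap-binding factors of the eIF4 group, 4 for eIF5, eIF5A and Tif52, 1 for eIF6, 4 for eEF1, 2 for eEF2, 1 for eEF3 and 2 for the release factors.

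PolyA RNA was sequenced from a mutant strain called HASX and from the wild type (WT) during phosphate starvation, with 7 groups of 3 biological replicates. HASX (strain BS1453, mating type h-) carries asp1-H397A, linked to natMX, in the inositol pyrophosphate kinase and pyrophosphatase gene asp1, and deletions of aps1 (replaced by kanMX), siw14 (by hygMX) and spx1 (by ura4MX). HASX was sampled after 1, 2 and 4 h in the medium ePMGT(-PO4), which lacks phosphate. The WT (strain Sp1, h-) was sampled after 1, 2 and 4 h in ePMGT(-PO4) and, at 0 h, in log phase at 30 °C in ePMGT(+PO4). Each genotype is 1 strain, and neither HASX before starvation, nor a strain with the markers alone, nor a transfer control was analysed here. A difference that HASX had before starvation and one that came with starvation can therefore not be told apart.

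Translation begins when eIF2 brings the initiator tRNA to the small ribosomal subunit, helped by eIF1A and eIF3, while eIF4E, eIF4G and eIF4A recruit the capped mRNA and eIF2B recharges eIF2 with GTP. During elongation eEF1A delivers aminoacyl-tRNAs, eEF2 moves the ribosome along, eIF5A helps with peptide bonds that form slowly, and fungi need a further ATPase, eEF3. At a stop codon eRF1 (sup45) releases the chain together with the GTPase eRF3 (sup35). Yeasts are known to turn down the genes of the translation machinery as a group when nutrients run short.

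Libraries held between 11235668 and 23680823 counts, and the lowest count of any of the 35 genes in any library was 110, so that all 35 passed the filter on low counts. Levels are given as CPM, which are counts scaled to libraries of 1 common size, with sizes set by TMM, a method that aligns libraries by the bulk of their genes. Of the deleted genes, aps1 was at 3.20 to 15.3 CPM in HASX and 156 to 215 CPM in the WT. For siw14 the ranges were 0.569 to 69.6 CPM in HASX and 98.6 to 257 CPM in the WT. For spx1 (pqr1 in the annotation) the ranges were 43.3 to 99.6 CPM in HASX and 232 to 343 CPM in the WT. HASX 4 h replicate 3 stood apart: its log2 levels correlated across genes at 0.896 and 0.893 with the other HASX 4 h libraries, while other pairs of replicates gave 0.983 to 0.997. That library also held the highest siw14 value of HASX, 69.6 CPM, and whether it holds RNA of cells that carry the gene was not tested. Results that rest on it are given with and without it. In bulk RNA, fewer cells of a kind and less RNA per cell cannot be told apart.

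**Figure D1:**
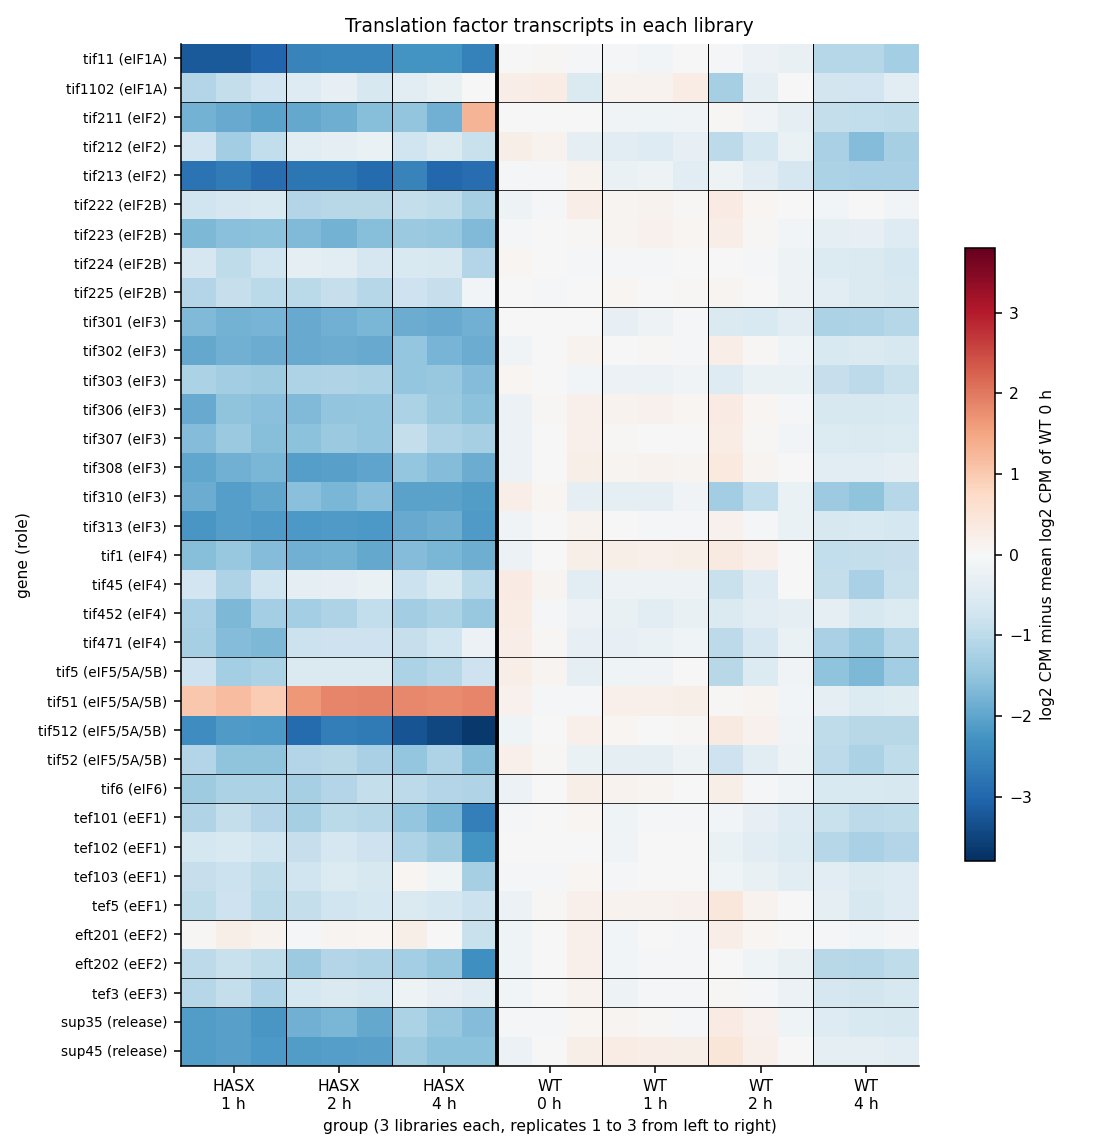
Heat map of the 35 genes (rows, grouped by role) in 21 libraries (columns, HASX to the left of the thick line and WT to the right), coloured by log2 CPM minus the mean log2 CPM of WT 0 h. Blue (lower) fills most HASX columns and, less deeply, the WT 4 h columns, while tif51 is red (higher) in all 9 HASX libraries and eft201 stays near white in most libraries.

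Most of these transcripts were lower in HASX than in the WT at the same hour. A gene was called when its edgeR quasi-likelihood test, adjusted by Benjamini-Hochberg over 6234 genes, gave a p under 0.05. At 1 h 33 of 35 genes were called lower in HASX, as were 37.8% of all genes tested. Of these genes 23 were lower by 2-fold or more, as were 22.0% of all genes. The only gene of the 35 called higher was tif51 for eIF5A, against 36.4% of all genes called higher, and eft201 for eEF2 passed in neither direction. The median log2 fold change of the 35 genes was -1.10, against -0.01 for all genes tested.

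At 2 h 26 of 35 genes were lower in HASX, where 39.3% of all genes were called lower, and tif51 was again the only one that was higher, where 37.5% were. The median was -0.97, against -0.01 for all genes. At 4 h 21 genes were lower and 5 were higher in HASX, beside 37.3% and 38.3% of all genes, with a median of -0.59 for the 35 genes and 0.05 for all genes. The 5 genes higher in HASX than in the WT at 4 h were tif51, tif212 (eIF2 beta), tif471 (eIF4G), tif5 (eIF5) and tef3 (eEF3). These are differences between the genotypes at the same hour, not changes over time in HASX. Of these 5 genes 4 depended on scaling. When libraries were scaled by their totals alone, the median of all genes at 4 h moved to -0.43, tif51 stayed as the only gene called higher, 27 were called lower, and tef3 turned to -0.14. The share of all genes called under this scaling is not given here, so these counts cannot be told from the shift of all genes. The median of the 35 genes lay at -0.66 from that of all genes under it.

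**Figure D2:**
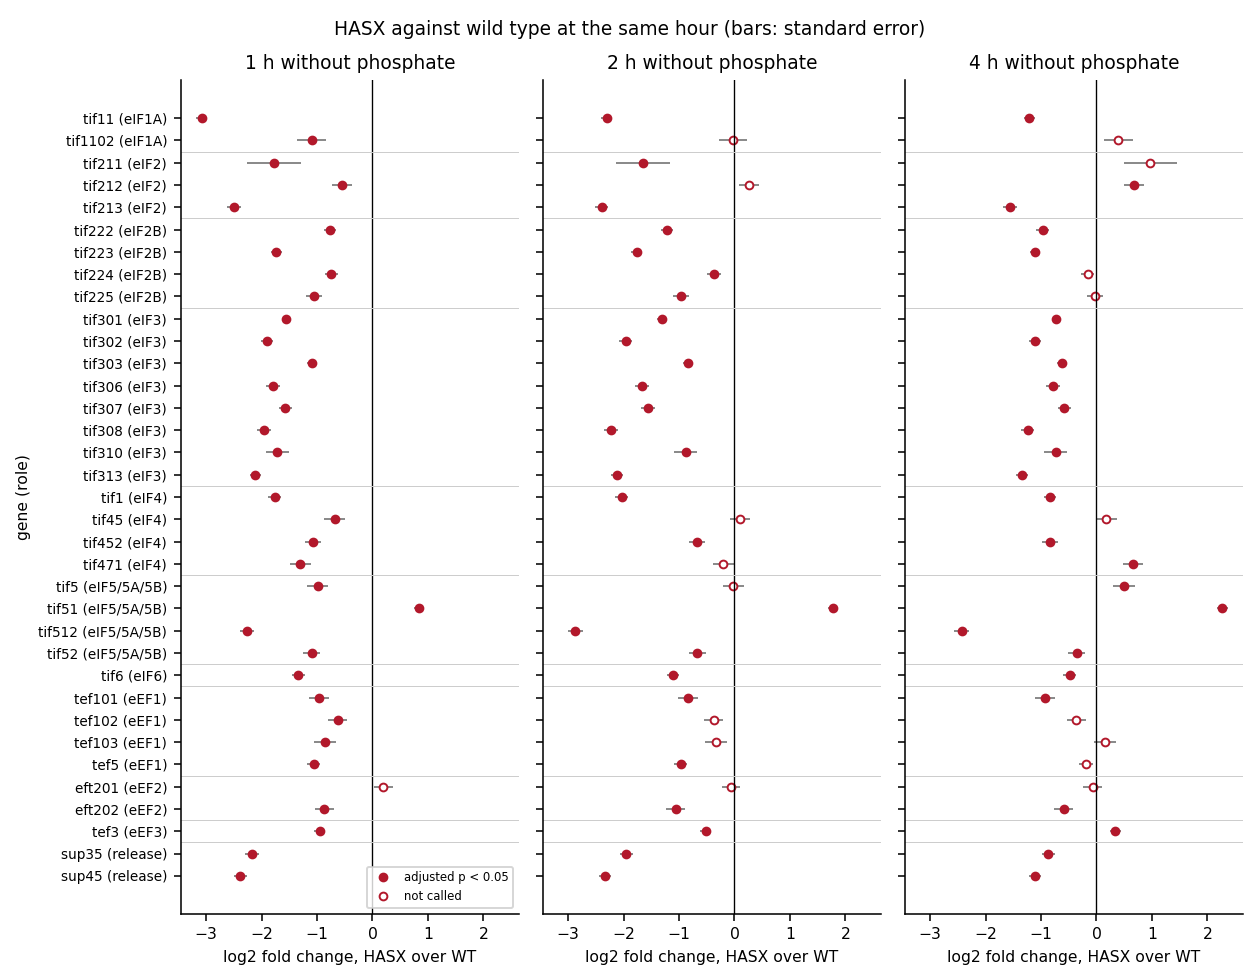
Log2 fold change of HASX over WT (x axis) for each of the 35 genes (y axis, by role) after 1, 2 and 4 h without phosphate, with bars for the standard error, filled symbols for calls at adjusted p under 0.05 and open symbols for the rest. Most genes lie left of 0, from -3.08 (tif11 at 1 h) upward, tif51 lies right of 0 at each hour with 0.84, 1.77 and 2.27, and more genes lie at or right of 0 at 4 h than at 1 h.

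In the WT itself these genes fell late in starvation. After 1 h without phosphate edgeR called 0 of 35 genes lower and 0 higher than at 0 h, beside 5.02% and 4.27% of all genes. Unadjusted p-values under 0.05 were reached by 5 genes in the lower and 2 in the higher direction, and DESeq2 also called 0 in each direction. After 2 h edgeR called 8 genes lower, beside 6.66% of all genes, namely tif212, tif213, tif301, tif303, tif310, tif452, tif471 and tif52. None was called higher by edgeR or DESeq2, where 10.9% of all genes were called higher, and 1 had an unadjusted p under 0.05. Of these 8 calls 7 were lost when single libraries were left out, WT 0 h replicate 1 ending all 7, and tif301 (eIF3a) was the only one that kept its call in each setting tried. The count of lower calls at 2 h ran from 1 without WT 0 h replicate 1 to 14 without HASX 4 h replicate 3, which enters this comparison only through the shared estimate of the spread.

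After 4 h without phosphate 32 of 35 genes were lower in the WT than at 0 h, where 25.0% of all genes were, and 12 fell by 2-fold or more, as did 9.08% of all genes. No gene was higher by edgeR, at an unadjusted p under 0.05 or by DESeq2, where 26.5% of all genes were called higher by edgeR. The median was -0.65, against 0.01 for all genes. The exceptions were tif211 (eIF2 alpha, -0.94), tif222 (eIF2B beta, -0.08) and eft201 (eEF2, -0.08). All 3 tif211 values at 4 h lay below all 3 at 0 h, and without HASX 4 h replicate 3, which had a tif211 level far above the others of its group, the change in the WT was -1.002 (adjusted p = 2.63e-08). The calls of tef103, tif1102 and tif452 at 4 h were each lost without WT 0 h replicate 1, at -0.52 (adjusted p = 0.0768), -0.55 (adjusted p = 0.139) and -0.36 (adjusted p = 0.0503). Other single libraries also ended the calls of tef103 and tif1102, whose adjusted p reached 0.115 (-0.47) without WT 4 h replicate 2 for tef103 and 0.153 (-0.52) without WT 0 h replicate 2 for tif1102. The WT comparisons at 1, 2 and 4 h share the 0 h libraries, and their starved libraries are also those that HASX was set against.

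The factor eIF1A keeps the scanning ribosome ready to find the start codon. Its gene tif11 (SPBC25H2.07) had 43.8, 43.6 and 49.2 CPM at 1 h, 68.8, 71.9 and 71.9 at 2 h, and 83.6, 82.3 and 67.1 at 4 h in HASX. Wild-type tif11 was at 405, 414 and 384 CPM at 0 h, 390.2, 369.8 and 396 at 1 h, 379, 346 and 327 at 2 h, and 187, 188 and 163 at 4 h. Every HASX library was below every WT library, and the lowest level was in HASX at 1 h. The log2 fold changes of HASX over WT were -3.08, -2.31 and -1.21 at 1, 2 and 4 h, with SE 0.10, 0.10 and 0.09 and adjusted p = 1.17e-15, 3.08e-14 and 6.19e-10. The value at 1 h was the lowest of the 35 genes, and the WT at 4 h was -1.16 against 0 h (adjusted p = 4.45e-09). The eIF1A-like gene tif1102 (SPBC146.08c) was measured at 6.35 to 18.5 CPM in all libraries. It was lower in HASX at 1 h (-1.10, adjusted p = 0.000861) and not called at 2 h (-0.03) or at 4 h (0.39).

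The 3 subunits of eIF2, which carries the initiator tRNA, did not move as 1 unit. The gamma subunit, which binds GTP and the tRNA, is encoded by tif213 (SPBC17G9.09), with 71.0, 77.7 and 65.8 CPM at 1 h, 73.8, 74.0 and 64.4 at 2 h, and 84.5, 62.7 and 66.9 at 4 h in HASX. Wild-type tif213 was at 473, 472 and 538 CPM at 0 h, 410.2, 433 and 362 at 1 h, 427, 371 and 318 at 2 h, and 215, 208 and 209.8 at 4 h. HASX was at a like level at the 3 hours, the WT was lowest at 4 h, and the genotypes did not overlap at any hour. The fold changes of HASX over WT were -2.49, -2.40 and -1.56 at 1, 2 and 4 h, with SE 0.12, 0.12 and 0.12 and adjusted p = 5.7e-13, 9.79e-13 and 7.67e-10, and the WT at 4 h was -1.23 against 0 h (adjusted p = 6.98e-08).

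The beta subunit gene tif212 (SPAC32A11.04c) had 175, 116 and 151 CPM at 1 h, 218, 224 and 241 at 2 h, and 171, 198 and 162 at 4 h in HASX. Wild-type tif212 was at 334, 318 and 224 CPM at 0 h, 211, 203 and 231 at 1 h, 146, 182 and 242 at 2 h, and 122, 91.7 and 119 at 4 h. HASX was below the WT in all libraries at 1 h, overlapped it at 2 h, and lay above it in all libraries at 4 h. The change at 1 h was -0.55 (SE 0.18, adjusted p = 0.0097), and it was -0.40 without HASX 1 h replicate 2 (adjusted p = 0.0655). At 2 h it was 0.26 (adjusted p = 0.185), and leaving out WT 2 h replicate 3 made it 0.47 (adjusted p = 0.0226). At 4 h it was 0.67 (SE 0.18, adjusted p = 0.00227), and 0.19 (adjusted p = 0.478) when libraries were scaled by totals alone. Within the WT tif212 had the second deepest fall of the 35 genes at 4 h, -1.40 (adjusted p = 3.3e-06).

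The alpha subunit, whose phosphorylation by eIF2 kinases turns down initiation, is encoded by tif211 (SPAC3G9.09c), with 128, 117 and 109 CPM at 1 h, 116, 122 and 146 at 2 h, and 158, 125 and 1078 at 4 h in HASX. Wild-type tif211 was at 441, 443 and 449.5 CPM at 0 h, 407, 393 and 407 at 1 h, 458, 406 and 346 at 2 h, and 239, 231 and 228 at 4 h. HASX lay below the WT in 8 of 9 libraries, and HASX 4 h replicate 3 was above all others. The changes were -1.77 (SE 0.49, adjusted p = 0.00299) at 1 h, -1.66 (SE 0.49, adjusted p = 0.0045) at 2 h and 0.97 (SE 0.48, adjusted p = 0.0729) at 4 h, where the sign rested on replicate 3. Without that library the change at 4 h was -0.68 (adjusted p = 1.47e-05), and it was 1.36 without replicate 1 (adjusted p = 0.00871) and 1.40 without replicate 2 (adjusted p = 0.00342). Whether the other features of that library had a part in its tif211 value was not tested.

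The guanine nucleotide exchange factor eIF2B is represented by 4 subunit genes, tif222 (beta, SPAC343.14c), tif223 (gamma, SPAC4D7.09), tif224 (delta, SPAC21E11.06) and tif225 (epsilon, SPAC8C9.15c). All 4 were lower in HASX at 1 h, with changes of -0.76, -1.74, -0.74 and -1.05 on the log2 scale (adjusted p = 3.77e-06, 3.6e-12, 1.71e-05 and 2.22e-06). Of all genes 37.8, 39.3 and 37.3% were called lower in HASX at 1, 2 and 4 h. The gamma gene tif223 moved most, with a mean of 49.2 ± 2.96 CPM in HASX and 164 ± 6.14 CPM in the WT at 1 h (SD, n = 3). All 4 were also lower at 2 h, where the call of tif224 (-0.37) was lost without HASX 2 h replicate 3 (-0.26, adjusted p = 0.0952). At 4 h tif222 (-0.97) and tif223 (-1.11) remained lower in HASX, and tif224 (-0.16) and tif225 (-0.03) were not called. For tif225 HASX 4 h replicate 3 had 140.1 CPM, above 86.7 and 82.4 CPM in the other HASX 4 h libraries, and without it the change was -0.28 (adjusted p = 0.0127). The beta gene tif222 was the exception within the WT, at 166 ± 6.46 CPM at 4 h and 176 ± 28 CPM at 0 h.

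The large scaffold eIF3 holds the initiation complex together, and its 8 genes here moved in 1 direction. All 8 were lower in HASX at 1, 2 and 4 h and lower in the WT at 4 h against 0 h. Of all genes 37.8, 39.3 and 37.3% were called lower in HASX at these hours, and 25.0% in the WT at 4 h. Median log2 fold changes of HASX over WT were -1.75, -1.61 and -0.76 at 1, 2 and 4 h, and the WT at 4 h had -0.62. The summed level of the 8 genes was 1299 ± 50.9 CPM in HASX and 4315 ± 32.3 CPM in the WT at 1 h, and 1455 ± 155 CPM in HASX and 2764 ± 10 CPM in the WT at 4 h (SD, n = 3). Among them tif313 (eIF3m, SPAC1751.03) had 126, 137 and 132 CPM at 1 h, 129.5, 132 and 131 at 2 h, and 157, 164 and 132 at 4 h in HASX. Wild-type tif313 was at 533, 588 and 650.3 CPM at 0 h, 581, 560.1 and 565 at 1 h, 659, 556 and 495 at 2 h, and 385, 393 and 370.0 at 4 h. No HASX library reached the WT range, and tif313 had the lowest change of the eIF3 genes at 1 h and at 4 h. The changes were -2.11, -2.12 and -1.34 at 1, 2 and 4 h, with SE 0.10, 0.10 and 0.10 and adjusted p = 5.19e-13, 4.74e-13 and 6e-10.

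The eIF3j gene tif310 (SPAC3A12.13c), for a loosely attached subunit, had 19.5, 17.1 and 18.2 CPM at 1 h, 23.9, 21.6 and 24.0 at 2 h, and 17.7, 17.5 and 16.7 at 4 h in HASX. Wild-type tif310 was at 85.4, 76.8 and 57.4 CPM at 0 h, 57.2, 57.5 and 65.5 at 1 h, 29.2, 37.6 and 61.1 at 2 h, and 27.6, 24.8 and 33.9 at 4 h. Every HASX library was below every WT library, and the WT libraries spread widely at 2 h, with replicate 3 the highest. The changes of HASX over WT were -1.72, -0.88 and -0.73 at 1, 2 and 4 h, with SE 0.20, 0.20 and 0.20 and adjusted p = 2.97e-07, 0.000575 and 0.00325, and at 2 h the value was -0.53 without WT 2 h replicate 3 (adjusted p = 0.00684). Of the 8 eIF3 genes tif310 fell most in the WT by 4 h, -1.35 (SE 0.20, adjusted p = 1.79e-05). The other eIF3 genes, tif301, tif302, tif303, tif306, tif307 and tif308, had changes between -1.09 (tif303) and -1.95 (tif308) in HASX at 1 h and between -1.15 (tif301) and -0.42 (tif308) in the WT at 4 h.

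Of the cap-binding group, the RNA helicase eIF4A is encoded by tif1 (SPAC1006.07), which stood at 1024 ± 77.4 CPM in HASX and 3481 ± 43.9 CPM in the WT at 1 h. Its changes of HASX over WT were -1.76, -2.04 and -0.84 at 1, 2 and 4 h, with SE 0.11, 0.11 and 0.11 and adjusted p = 2.05e-11, 2.48e-12 and 1e-06. The scaffold eIF4G, tif471 (SPAC17C9.03), had 144, 110.4 and 106 CPM at 1 h, 196, 203 and 202 at 2 h, and 189.5, 206 and 299 at 4 h in HASX. Wild-type tif471 was at 418, 357 and 282 CPM at 0 h, 281, 294 and 313 at 1 h, 175, 224 and 290.2 at 2 h, and 148, 129 and 164 at 4 h. HASX was lower in all libraries at 1 h, lay inside the WT range at 2 h and was higher in all libraries at 4 h. The changes were -1.30, -0.20 and 0.66 at 1, 2 and 4 h, with SE 0.19, 0.18 and 0.18 and adjusted p = 3.35e-06, 0.33 and 0.00346, and at 4 h the value was 0.46 without HASX 4 h replicate 3 (adjusted p = 0.0383). With library totals alone it was 0.19 (adjusted p = 0.505) at 4 h.

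The cap-binding protein eIF4E has 2 genes. The gene tif45 (SPAC16E8.15) had 77.2, 56.6 and 75.4 CPM at 1 h, 97.6, 103 and 106 at 2 h, and 72.0, 85.0 and 62.2 at 4 h in HASX. Wild-type tif45 was at 157, 135 and 96.2 CPM at 0 h, 111, 112 and 112 at 1 h, 69.9, 90.8 and 125 at 2 h, and 68.1, 54.0 and 70.8 at 4 h. It was lower in HASX at 1 h, -0.68 (SE 0.19, adjusted p = 0.00346), and overlapped the WT at 2 h (0.10) and at 4 h (0.18), where it was not called. The isoform gene tif452 (SPBC1709.18), a stress response factor by its product name, had 29.9, 21.7 and 28.6 CPM at 1 h, 28.9, 31.5 and 36.5 at 2 h, and 27.9, 30.6 and 25.7 at 4 h in HASX. Wild-type tif452 was at 85.9, 67.6 and 59.7 CPM at 0 h, 57.8, 53.3 and 57.5 at 1 h, 48.0, 51.8 and 55.6 at 2 h, and 54.8, 46.2 and 48.5 at 4 h. Every HASX library was below every WT library, and the changes were -1.07, -0.68 and -0.83 at 1, 2 and 4 h, with SE 0.14, 0.14 and 0.14 and adjusted p = 1.46e-06, 0.000235 and 3.76e-05. As a share of the counts of both eIF4E genes tif452 took 27.7% ± 0.186, 23.9% ± 1.48 and 27.9% ± 1.36 in HASX at 1, 2 and 4 h (SD, n = 3). In the WT that share was 35.7% ± 2.5, 33.5% ± 1.06, 35.9% ± 4.97 and 43.8% ± 2.8 at 0, 1, 2 and 4 h. The share was thus lower in HASX than in the WT at each hour, beyond the spread of the replicates, a description without a test.

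The GTPase activator of eIF2, eIF5, is encoded by tif5 (SPAC2F7.05c), with 169.7, 119.5 and 126 CPM at 1 h, 199.7, 202 and 202 at 2 h, and 127, 139.5 and 169 at 4 h in HASX. Wild-type tif5 was at 352, 314 and 229.8 CPM at 0 h, 261, 269.8 and 292 at 1 h, 142, 204 and 266 at 2 h, and 101, 89.7 and 118 at 4 h. The WT lost more of tif5 by 4 h than of any other of the 35 genes, -1.53 (SE 0.19, adjusted p = 2.4e-06). HASX was lower at 1 h, -0.98 (SE 0.19, adjusted p = 0.000121), not called at 2 h (-0.02, inside the wide WT range) and higher in all libraries at 4 h, 0.50 (SE 0.19, adjusted p = 0.0248). That difference at 4 h did not pass in the fit that left out HASX 4 h replicate 3 (0.40, adjusted p = 0.107). Nor did it pass without WT 4 h replicate 1 (0.48, with an adjusted p of 0.0614), without WT 4 h replicate 2 (0.41, with an adjusted p of 0.102), or with library totals alone (0.03). The gene tif52 (SPAC56F8.03) was lower in HASX at 1 h (-1.10) and 2 h (-0.67), with adjusted p = 2.74e-06 and 0.000561. At 4 h its -0.35 (adjusted p = 0.044) was lost when any of 4 single libraries was left out, the smallest in size being -0.23 without HASX 4 h replicate 3 (adjusted p = 0.26). The call was also lost by DESeq2 (-0.28, adjusted p = 0.0903) and with upper-quartile scaling (-0.24, adjusted p = 0.285).

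The 2 eIF5A genes differed from the WT in opposite directions in HASX. Both encode a small factor that carries the modified residue hypusine. The gene tif51 (SPAC26H5.10c) had 1242, 1403 and 1201 CPM at 1 h, 1914, 2212 and 2270 at 2 h, and 2206, 2154 and 2217 at 4 h in HASX. Wild-type tif51 was at 683, 587 and 584 CPM at 0 h, 708, 712 and 723 at 1 h, 635, 660.5 and 577 at 2 h, and 485, 431 and 446 at 4 h. All 9 HASX libraries were above all 12 WT libraries. The changes of HASX over WT were 0.84, 1.77 and 2.27 at 1, 2 and 4 h, with SE 0.09, 0.09 and 0.10 and adjusted p = 7.87e-08, 1.37e-12 and 1.22e-13, while WT cells at 4 h were -0.45 against 0 h (adjusted p = 0.000488).

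The gene tif512 (SPBC336.10c), annotated as a putative eIF5A, went the other way, with 364, 421 and 406 CPM at 1 h, 247, 298 and 291 at 2 h, and 191, 169 and 146 at 4 h in HASX. Wild-type tif512 was at 1646, 1831 and 2119 CPM at 0 h, 1955, 1863 and 1916 at 1 h, 2340, 2059 and 1694 at 2 h, and 956, 889 and 887 at 4 h. All 9 HASX libraries were below all 12 WT libraries, and the lowest HASX levels were at 4 h. The changes were -2.27, -2.87 and -2.43 at 1, 2 and 4 h, with SE 0.13, 0.13 and 0.13 and adjusted p = 4e-12, 1.49e-13 and 3.37e-12, and the WT at 4 h was -1.03 against 0 h (adjusted p = 1.17e-06).

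Of the counts of both eIF5A genes, tif51 took 76.3% ± 1.4, 88.5% ± 0.275 and 92.9% ± 0.9 in HASX at 1, 2 and 4 h (SD, n = 3). In the WT it took 25.1% ± 3.93, 27.2% ± 0.547, 23.7% ± 2.1 and 33.2% ± 0.533 at 0, 1, 2 and 4 h. The smaller part of the pair in WT counts was therefore the larger part in HASX. These are shares of counts, not of molecules per length, and how the counting divided reads between similar gene copies, or between a gene and transcripts that overlap it, is not given in the sources used here. Counting error and replicate spread are small against this difference, since the lowest tif512 count in any library was 1520.

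**Figure D3:**
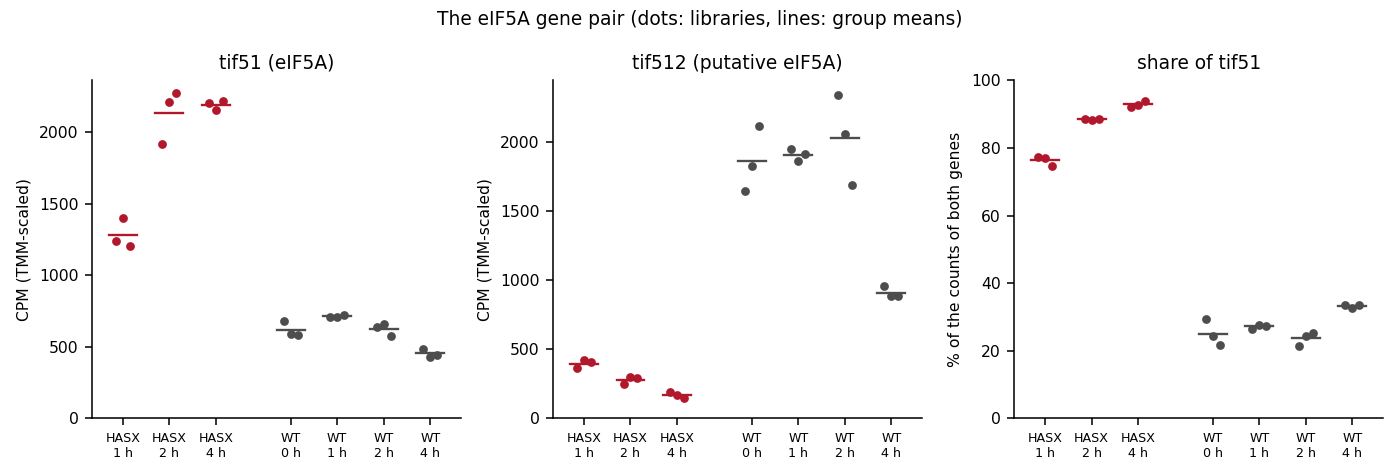
CPM of tif51 and tif512 and the share of tif51 in the counts of both genes (y axes, from 0) in each library (dots) with group means (lines), HASX in red and WT in grey, by hour (x axis). In HASX tif51 lies at 1201 to 2270 CPM and in the WT at 431 to 723 CPM, while tif512 lies at 146 to 421 CPM in HASX and at 887 to 2340 CPM in the WT.

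The gene tif6 (SPCC1919.09) for eIF6, which keeps free large subunits apart from small ones, was lower in HASX at each hour. It stood at 198 ± 12 CPM in HASX and 501 ± 17.7 CPM in the WT at 1 h (SD, n = 3). The changes were -1.34, -1.11 and -0.48 at 1, 2 and 4 h, with SE 0.12, 0.11 and 0.11 and adjusted p = 2.41e-09, 3.12e-08 and 0.000807.

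Of the elongation factors, all 4 eEF1 genes were called lower in HASX at 1 h, 2 at 2 h and 1 at 4 h, with medians of -0.91, -0.60 and -0.28. Of all genes 37.8, 39.3 and 37.3% were called lower at these hours, so that the counts at 2 h and 4 h do not set the eEF1 genes apart. The GTPase eEF1A has 3 genes, which encode near-identical proteins in fission yeast, so that the counts may be divided wrongly among them. The gene tef101 (SPCC794.09c) had 742, 883 and 756 CPM at 1 h, 683, 805 and 771 at 2 h, and 591, 498 and 272 at 4 h in HASX. Wild-type tef101 was at 1565, 1658 and 1729 CPM at 0 h, 1472, 1574 and 1571 at 1 h, 1535, 1327 and 1173 at 2 h, and 918, 831 and 849.5 at 4 h. HASX was below the WT in all libraries at each hour, with HASX 4 h replicate 3 the lowest. The changes were -0.96, -0.84 and -0.93 at 1, 2 and 4 h, with SE 0.18, 0.18 and 0.18 and adjusted p = 8.62e-05, 0.000309 and 0.000121, the last of which was -0.64 without that library (adjusted p = 2.94e-05).

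The second eEF1A gene, tef102 (SPAC23A1.10), had 490.5, 517 and 459.6 CPM at 1 h, 427, 502 and 449 at 2 h, and 349, 309 and 162 at 4 h in HASX. Wild-type tef102 was at 778, 771 and 793 CPM at 0 h, 716, 772 and 770.0 at 1 h, 651, 586 and 547 at 2 h, and 366, 333 and 358 at 4 h. HASX was below the WT in all libraries at 1 h and 2 h, and the genotypes overlapped at 4 h. It was lower in HASX at 1 h, -0.62 (SE 0.17, adjusted p = 0.00294), and was not called at 2 h (-0.37, adjusted p = 0.0538) or at 4 h (-0.36, adjusted p = 0.0602). Without HASX 4 h replicate 3, where tef102 was lowest, the change at 2 h was called (-0.34, adjusted p = 0.000676) and that at 4 h was -0.07. Without HASX 4 h replicate 1 the change at 4 h was called (-0.58, adjusted p = 0.00505).

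The remaining eEF1A gene, tef103 (SPBC839.15c), had 1076, 1124 and 1011 CPM at 1 h, 1174, 1375 and 1299 at 2 h, and 2091, 1767 and 819 at 4 h in HASX. Wild-type tef103 was at 1928, 1937 and 2073 CPM at 0 h, 1875, 2004 and 1942 at 1 h, 1774, 1623 and 1454 at 2 h, and 1454, 1344 and 1404 at 4 h. HASX was below the WT in all libraries at 1 h and 2 h, and at 4 h its libraries lay on both sides of the WT. The change was called at 1 h, -0.86 (SE 0.20, adjusted p = 0.000785), and not at 2 h (-0.34, adjusted p = 0.135) or at 4 h (0.15, adjusted p = 0.494). Without HASX 4 h replicate 3 tef103 changed by -0.30 at 2 h (adjusted p = 0.00354), and 4 h then gave 0.49 (adjusted p = 0.000116). Of the counts of the 3 eEF1A genes tef103 took 45.5% ± 1.05, 51.4% ± 0.15 and 67.7% ± 2.02 in HASX at 1, 2 and 4 h (SD, n = 3). In the WT it took 44.9% ± 0.44, 45.9% ± 0.45, 45.5% ± 0.614 and 53.5% ± 0.341 at 0, 1, 2 and 4 h. HASX 4 h replicate 3 stood with its group in this share, at 65.3% beside 69.0% and 68.6%, although its levels of the 3 genes were the lowest of the group.

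The exchange factor of eEF1A, tef5 (SPCC1450.04, eEF1B beta), stood at 1325 ± 108 CPM in HASX and 2769 ± 27.2 CPM in the WT at 1 h. It was lower in HASX at 1 h (-1.06, adjusted p = 1.94e-07) and 2 h (-0.97, adjusted p = 5.82e-07), and not called at 4 h (-0.18, adjusted p = 0.177).

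The translocase eEF2 also has a pair of genes, and they parted. The gene eft201 (SPAC513.01c) had 464, 523 and 489 CPM at 1 h, 439, 480.2 and 473 at 2 h, and 525, 446 and 251 at 4 h in HASX. Wild-type eft201 was at 396.6, 445 and 511 CPM at 0 h, 416, 442 and 429.5 at 1 h, 537, 471 and 445 at 2 h, and 424, 416 and 439 at 4 h. The genotypes overlapped at 2 h and 4 h, and at 1 h the lowest HASX library lay above the highest WT library. The changes were 0.20 (SE 0.17), -0.06 (SE 0.17) and -0.07 (SE 0.17) at 1, 2 and 4 h, with adjusted p = 0.297, 0.744 and 0.732. Without HASX 4 h replicate 3, which had the lowest eft201 level, eft201 was called higher in HASX at 1 h by 0.20 (adjusted p = 0.0297) and by 0.22 at 4 h (adjusted p = 0.0354).

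The other eEF2 gene, eft202 (SPCP31B10.07), had 312, 344 and 319 CPM at 1 h, 239.7, 288 and 274 at 2 h, and 252, 230.5 and 123 at 4 h in HASX. Wild-type eft202 was at 553, 613 and 701 CPM at 0 h, 580.0, 603 and 601 at 1 h, 616, 549.7 and 509 at 2 h, and 298, 294 and 318 at 4 h. HASX was below the WT in all libraries at each hour, and the WT lost eft202 between 2 and 4 h. The changes of HASX over WT were -0.87, -1.06 and -0.59 at 1, 2 and 4 h, with SE 0.17, 0.17 and 0.17 and adjusted p = 0.000137, 1.4e-05 and 0.00436, the last of which was -0.30 without HASX 4 h replicate 3 (adjusted p = 0.00695). Of the counts of both eEF2 genes, eft201 took 60.2% ± 0.389, 63.5% ± 1.1 and 66.9% ± 0.851 in HASX at 1, 2 and 4 h (SD, n = 3). In the WT that share was 42.0% ± 0.203, 41.9% ± 0.336, 46.5% ± 0.278 and 58.4% ± 0.407 at 0, 1, 2 and 4 h. The division of reads between these similar genes is uncertain here too.

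The eEF3 gene tef3 (SPCC417.08), for the ATPase that clears spent tRNA from the ribosome, stood at 1545 ± 148, 2108 ± 98.5 and 2604 ± 198 CPM in HASX at 1, 2 and 4 h (SD, n = 3). In the WT it stood at 3215 ± 264, 2992 ± 150, 3022 ± 278 and 2055 ± 78.4 CPM at 0, 1, 2 and 4 h. It was lower in HASX at 1 h (-0.95, adjusted p = 3.57e-08) and 2 h (-0.52, adjusted p = 7.66e-05). At 4 h it was higher (0.34, adjusted p = 0.00385), with the sign turned to -0.14 (adjusted p = 0.044) by scaling with library totals alone.

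Both release factor genes were among those furthest below the WT in HASX. The eRF1 gene sup45 (SPAC1834.01) had 104, 109 and 98.9 CPM at 1 h, 104, 107 and 108 at 2 h, and 177, 155 and 153 at 4 h in HASX. Wild-type sup45 was at 390.3, 449.7 and 529 CPM at 0 h, 554, 544 and 528 at 1 h, 629, 515 and 461 at 2 h, and 348, 357 and 342 at 4 h. No HASX library reached the lowest WT value, and HASX was higher at 4 h than at the earlier hours. The changes of HASX over WT were -2.38, -2.33 and -1.11 at 1, 2 and 4 h, with SE 0.12, 0.12 and 0.11 and adjusted p = 3.35e-13, 4.29e-13 and 2.65e-08.

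The eRF3 gene sup35 (SPCC584.04) had 129.7, 134 and 120.4 CPM at 1 h, 159.5, 170.2 and 146 at 2 h, and 244, 206 and 180.3 at 4 h in HASX. Wild-type sup35 was at 544, 549.9 and 597 CPM at 0 h, 603, 582 and 544 at 1 h, 706, 630.0 and 501 at 2 h, and 403, 379.9 and 370.2 at 4 h. Its pattern was like that of sup45, with all HASX libraries below all WT libraries. The changes were -2.17, -1.95 and -0.87 at 1, 2 and 4 h, with SE 0.12, 0.12 and 0.12 and adjusted p = 3.05e-12, 1.27e-11 and 1.53e-06, and in the WT the 4 h level was -0.55 against 0 h (adjusted p = 0.000585).

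**Figure D4:**
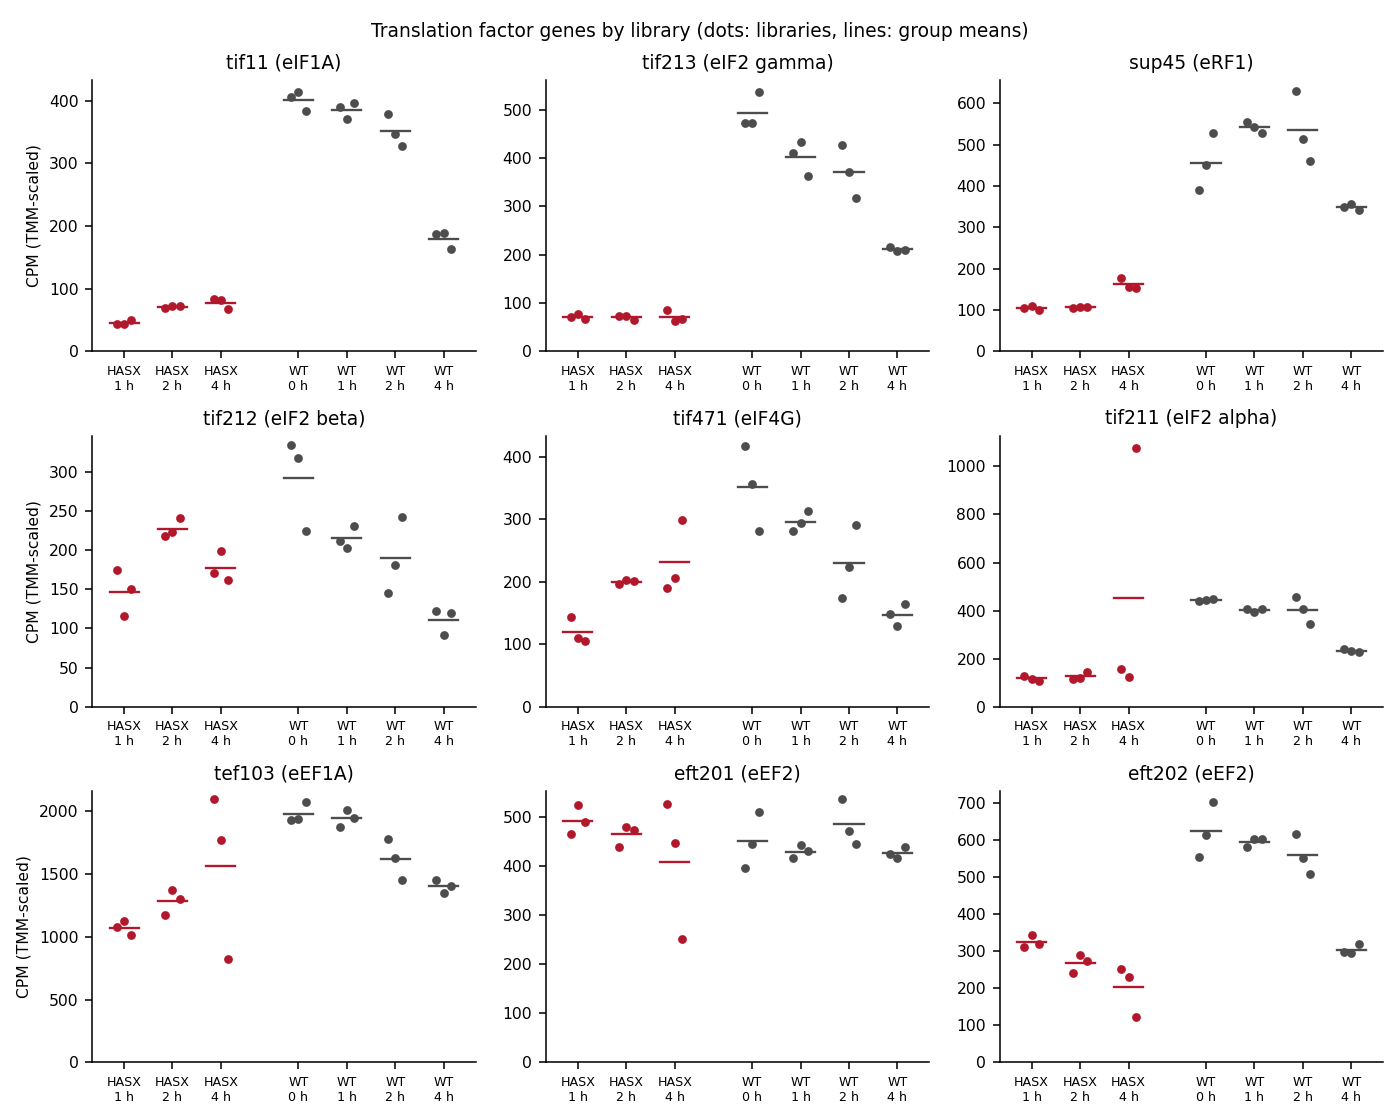
CPM (y axes, from 0) of 9 of the genes in each library (dots) with group means (lines), HASX in red and WT in grey, by hour (x axis). The upper row shows genes that stay low in HASX (tif11 at 43.6 to 83.6 CPM, against 163 to 414 CPM in the WT), the middle row the eIF2 beta, eIF4G and eIF2 alpha genes with tif211 at 1078 CPM in HASX 4 h replicate 3, and the lower row an eEF1A and both eEF2 genes.

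Between 1 h and 4 h of starvation the 2 genotypes took different courses. In the WT 30 of 35 genes were lower at 4 h than at 1 h, where 19.9% of all genes were. No gene was higher by edgeR, at an unadjusted p under 0.05 or by DESeq2, beside 24.4% of all genes called higher by edgeR. The call of tif1102 in the WT (-0.80) was lost without WT 1 h replicate 3, WT 4 h replicate 1 or WT 4 h replicate 2, with adjusted p up to 0.0623 (-0.75). In HASX 11 genes were higher at 4 h than at 1 h and 6 were lower, beside 25.6% and 19.2% of all genes, and 18 were not called. The median of the 35 genes was -0.70 in the WT, against 0.02 for all genes, and 0.17 in HASX, against 0.06 for all genes.

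The 11 genes that were higher in HASX at 4 h than at 1 h were tif11 (0.77), tif1102 (0.69), tif211 (1.95), tif225 (0.46), tif307 (0.45), tif471 (0.95), tif51 (0.77), tef103 (0.54), tef3 (0.75), sup35 (0.71) and sup45 (0.64). The 6 that were lower were tif222 (-0.38), tif303 (-0.24), tif512 (-1.24), tef101 (-0.81), tef102 (-0.84) and eft202 (-0.69). Without HASX 4 h replicate 3 these counts were 15 higher and 5 lower, and tif211 was at 0.29 (adjusted p = 0.0348), tif225 at 0.19 (adjusted p = 0.113) and tif303 at -0.15 (adjusted p = 0.245). In that setting tef101, tef102 and eft202 were at -0.52, -0.55 and -0.41, and tef103 was at 0.87. The call of tif1102 was lost when any single HASX library at 1 h or 4 h was left out. It was at 0.60 (adjusted p = 0.15) without HASX 1 h replicate 1 and 0.59 (adjusted p = 0.122) without HASX 4 h replicate 3. The call of tef103 was lost without any of these libraries except HASX 4 h replicate 3. It was at 0.55 (adjusted p = 0.0737) without HASX 1 h replicate 1 and 0.27 (adjusted p = 0.262) without HASX 4 h replicate 1. With libraries scaled by totals alone, which moved the median of all genes to -0.29, 7 genes were higher and 15 lower. The shares of all genes called under that scaling, or without HASX 4 h replicate 3, are not given here. These counts can therefore not be told from a shift of all genes.

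The difference between these courses was tested as an interaction, the change between 1 h and 4 h in HASX minus that in the WT. It was positive and called for 28 of 35 genes, where 22.4% of all genes were. No gene had a negative call by edgeR, an unadjusted p under 0.05 in that direction or a negative call by DESeq2, where 21.7% of all genes had a negative call by edgeR. The median was 0.88, against 0.07 for all genes. The 3 with the largest values were tif211 with 2.74 (SE 0.68, adjusted p = 0.00313), tif471 with 1.96 (SE 0.26, adjusted p = 8.04e-06) and tif11 with 1.87 (SE 0.13, adjusted p = 1.89e-09), and without HASX 4 h replicate 3 tif211 was at 1.09 (adjusted p = 4.04e-06). For tif45 (0.86) the call was lost without HASX 4 h replicate 2 (0.75, adjusted p = 0.0563). The 7 genes not called were tif222, tif452, tif512, tef101, tef102, eft201 and eft202. When HASX 4 h replicate 3 was left out, 30 genes were called, all positive, and tef102 (0.55, adjusted p = 0.000868) and eft202 (0.57, adjusted p = 0.000773) were among them. With library totals alone 22 genes had a positive and 3 a negative call, tif222, tif512 and eft201 at -0.59, -0.54 and -0.65. Under that scaling the median of all genes in the interaction moved to -0.30, and that of the 35 genes lay 0.80 above it. The shares of all genes called under it, or without HASX 4 h replicate 3, are not given here. This interaction uses the same 1 h and 4 h libraries as the comparisons between genotypes at those hours.

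Other genes linked to translation were set beside these 35. The genes named from these other lists were chosen after their values were seen. A further list of 22 genes found in the annotation was mixed. Beside sui1, moe1, int6, sum1, sce3, pab1, rli1, hbs1 and dom34 it held genes that are not factors of these steps themselves. Those were dph1 to dph7, the eIF2 kinase genes gcn2, hri1 and hri2, and gcn1, gcn20 and fil1. Of the 22 genes, 4 were higher and 14 lower in HASX at 1 h, 5 higher and 9 lower at 2 h, and 6 higher and 13 lower at 4 h. Of all genes 36.4, 37.5 and 38.3% were higher and 37.8, 39.3 and 37.3% lower at these hours, so that the count of lower genes at 2 h was near that share. Their median changes were -0.65, -0.20 and -0.39 at 1, 2 and 4 h. Among them the remaining eIF3 genes moe1 (eIF3d), int6 (eIF3e) and sum1 (eIF3i) were lower in HASX at each hour, at 1 h with changes of -1.19, -1.04 and -1.40 (adjusted p = 2.19e-08, 1.62e-09 and 2e-09). The eIF4B gene sce3, for a partner of eIF4A, was at 146.9 ± 16.4 CPM in HASX and 718 ± 8.66 CPM in the WT at 1 h, a change of -2.29 (adjusted p = 3.4e-13). The gene rli1, for the ATPase that splits ribosomes after termination, was lower at 1, 2 and 4 h, with changes of -2.12, -2.23 and -0.77 (adjusted p = 1.1e-11, 4.96e-12 and 1.58e-05). The eIF1 gene sui1 was lower as well, with -1.27, -1.49 and -1.11 (adjusted p = 4.85e-09, 4.55e-10 and 4.39e-08).

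Genes for kinases of eIF2 alpha and their partners moved in both directions. The gene hri1, for a kinase of eIF2 alpha, was at 137.1 ± 11.1, 140 ± 10.1 and 153.9 ± 7.32 CPM in HASX at 1, 2 and 4 h (SD, n = 3). In the WT hri1 was at 42.5 ± 9.65, 39.5 ± 1.91, 47.9 ± 7.16 and 70.8 ± 5.74 CPM at 0, 1, 2 and 4 h. The changes of HASX over WT were 1.80, 1.55 and 1.12 (adjusted p = 3.24e-10, 2.43e-09 and 2.96e-07), and the WT at 4 h was 0.74 above 0 h (adjusted p = 0.000136). The paralog hri2 was lower in HASX at 1 h (-0.86, adjusted p = 0.00115) and not called at 2 h (-0.19). Its call at 4 h (-0.53, adjusted p = 0.0318) was lost without HASX 4 h replicate 3 (-0.34, adjusted p = 0.205). The gene gcn1, for the ribosome-bound activator of the eIF2 kinase Gcn2, was higher in HASX by 0.90, 0.82 and 1.66 at 1, 2 and 4 h (adjusted p = 1.31e-07, 4.04e-07 and 3.05e-11). The gene gcn2 for that kinase was not called at 1, 2 or 4 h (0.18, 0.04 and 0.00). Lower calls of gcn20, for the partner of Gcn1, at 1 h (-0.24, adjusted p = 0.0307) and 4 h (-0.31, adjusted p = 0.00681) were lost by DESeq2 at 1 h (-0.19, adjusted p = 0.101) and without HASX 4 h replicate 3 at 4 h (-0.17, adjusted p = 0.0898). The 1 h call of gcn20 was also lost without any single WT 1 h library and without HASX 1 h replicate 1 or replicate 3. The ribosome rescue gene dom34 was higher at each hour, by 0.61 at 1 h (adjusted p = 0.00709), by 1.18 at 2 h (adjusted p = 1.3e-05) and by 1.02 at 4 h (adjusted p = 8.48e-05), and its 1 h call was lost with library totals alone (0.51, adjusted p = 0.0554).

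Ribosomal proteins, the class nearest in function, had lower medians than the factors that work on the ribosome, in HASX over WT and in the WT at 4 h. Of 141 genes for cytosolic ribosomal proteins 141, 141 and 134 were lower in HASX at 1, 2 and 4 h, with medians of -2.98, -3.22 and -2.14, 2 were higher in HASX at 4 h, and 139 were lower in the WT at 4 h, with a median of -1.48. Of all genes 37.8, 39.3 and 37.3% were called lower in HASX at these hours. At 4 h 38.3% were called higher in HASX and 25.0% lower in the WT. The share of ribosomal proteins in all counts was 1.27 to 2.77% in HASX libraries and 6.40 to 18.2% in WT libraries, while that of the 35 factor genes was 1.07 to 1.32% in HASX and 1.65 to 2.85% in the WT. The medians of the 35 genes were nearer to 0 in each of these comparisons, a description for which no test was made. In HASX between 1 h and 4 h ribosomal proteins had 7 genes higher and 103 lower, beside 25.6% and 19.2% of all genes. Their median was -0.62, where the 35 genes had a median of 0.17. In the interaction the medians were 0.80 for ribosomal proteins and 0.88 for the 35 genes.

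**Figure D5:**
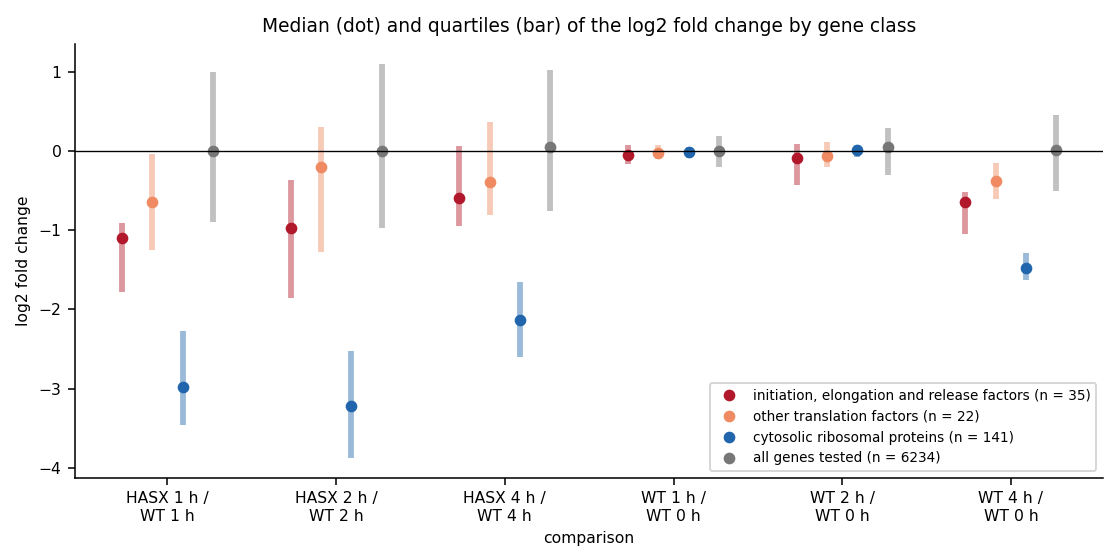
Median (dots) and quartiles (bars) of the log2 fold change (y axis) in 4 classes of genes for HASX over WT at 1, 2 and 4 h and for the WT at 1, 2 and 4 h over 0 h (x axis). For HASX over WT and for the WT at 4 h the 35 factor genes lie between the ribosomal proteins and all genes tested, with medians of -1.10, -0.97 and -0.59 for HASX over WT against -2.98, -3.22 and -2.14 for ribosomal proteins.

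Across the 7 group means, most of the 35 genes had a similar course. The mean profile of the genes, each centred on its own mean log2 CPM, was -0.68, -0.53 and -0.55 in HASX at 1, 2 and 4 h and 0.69, 0.65, 0.52 and -0.08 in the WT at 0, 1, 2 and 4 h. Neighbouring values at 2 and 4 h in HASX and at 0 and 1 h in the WT were close, and the step between the WT at 2 h and 4 h was the largest between hours of 1 genotype. Correlation with this profile over 7 groups, to which each gene itself contributes, was -0.746 for tif51 and 0.043 for eft201. It lay between 0.461 and 0.765 for tif212, tif1102, tif45, tif5, tif471 and tef102, and between 0.822 (tef3) and 0.995 (tif6) for the others. The protein-coding genes outside the list with the most similar profile were cbf5 (0.999), grn1 (0.997), cct5 (0.996), mri1 (0.996) and utp7 (0.996), by Pearson correlation of 7 group means that share their libraries.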

How the data were processed

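PolyA RNA was sequenced as stranded paired-end libraries, per the labels' protocols. The deposited tables hold the authors' raw counts per gene, and the submitters' processing notes name HISAT2 2.1.0, SAMtools, HTSeq 0.10.0, DESeq2 and genome build ASM294v2. The strand setting and the treatment of reads that match several genes are not given in the sources used here, so reads of antisense or overlapping transcripts and of similar gene copies could not be told apart. Names and gene types came from RefSeq's annotation of another build (ASM294v3), which matched 6848 of 6988 identifiers, so coordinates, gene lengths and sequences were not used here. Levels were compared between genes only as shares of counts within families of similar genes, not per length.

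All 21 libraries were fitted together with edgeR 4.0.16 (R 4.3.3), with TMM scaling, filterByExpr (754 identifiers removed, 6234 tested), glmQLFit and glmQLFTest. The fit had 1 mean per group, a common biological coefficient of variation of 0.212 and 14 residual degrees of freedom. P-values are two-sided and Benjamini-Hochberg adjusted over 6234 genes, with calls under 0.05. The script was tested on counts simulated with less spread and fewer changed genes than these data, which checks the code and not the calls made here. DESeq2 1.42.0, other scalings and filters, the replicate block and each library left out were alternatives. The fit without HASX 4 h replicate 3 was extended to all comparisons after seeing the data. Replicate pairs all differed beyond sampling noise (chi-square per degree of freedom of 6.25 or more). Replicate numbers are not stated to pair libraries. Deviations of 63 same-numbered pairs correlated at -0.656 to 0.424, 10 of them above 0.1. Pairs with different numbers were not compared, so a pairing or shared batch cannot be judged from this.

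Members and lists were chosen with earlier results of these data known. Values in every library are printed for the eEF1A, eEF2, eIF4E and eIF5A genes, sup35, sup45 and tif211. They are also printed for the genes with the 3 lowest and highest changes per comparison with called genes. Exceptions, given only by group means, include tif1, among the 3 lowest in the WT at 4 h over 1 h. They also include tif222, among the 3 highest in the WT at 4 h over 0 h, and tef5, among the 3 highest in the WT at 2 h over 0 h.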

Additional observations from a re-analysis of the deposited data

Results flagged for a closer look

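For 28 of the 35 genes the change between 1 h and 4 h without phosphate differed between HASX and the WT by a test of the difference itself, the interaction term of the edgeR fit, and each value below is that difference on the log2 scale, HASX minus WT. Among initiation factors up to eIF2B it was 1.87 for tif11, 1.49 for tif1102, 2.74 for tif211, 1.22 for tif212, 0.93 for tif213, 0.63 for tif223, 0.58 for tif224 and 1.02 for tif225. For eIF3 it was 0.83 for tif301, 0.79 for tif302, 0.47 for tif303, 1.00 for tif306, 0.99 for tif307, 0.71 for tif308, 0.98 for tif310 and 0.77 for tif313. For the cap-binding group it was 0.93 for tif1, 0.86 for tif45 and 1.96 for tif471, and for the later initiation factors 1.48 for tif5, 1.43 for tif51, 0.74 for tif52 and 0.86 for tif6. For elongation and termination it was 1.01 for tef103, 0.88 for tef5, 1.30 for tef3, 1.30 for sup35 and 1.27 for sup45.

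All 28 values were positive. For tif51 the WT level was lower at 4 h than at 1 h and the HASX level was higher. The tif211 value was 1.09 without HASX 4 h replicate 3, and the tif45 call was lost without HASX 4 h replicate 2 (0.75, adjusted p = 0.0563). No explanation for these differences was tested.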

How the results depend on the processing

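Across all settings tried, 29 of 32 calls in the WT at 4 h, 33 of 34 in HASX over WT at 1 h, 26 of 27 at 2 h, 21 of 26 at 4 h, 11 of 17 in HASX at 4 h over 1 h and 22 of 28 in the interaction were kept, but 1 of 8 in the WT at 2 h. A further demand of a 2-fold change left 0 lower genes in the WT at 2 h, 12 at 4 h and 7 at 4 h over 1 h. Of all 6234 genes tested 63, 566 and 435 were lower by this demand. In HASX over WT it left 0 higher at 1 h, 17 lower at 2 h, and 1 higher and 8 lower at 4 h. Of all 6234 genes 1472 were higher at 1 h, 1484 lower at 2 h, and 1541 higher and 1161 lower at 4 h. The count of 8 lower at 4 h was thus near the share of all genes. In HASX at 4 h over 1 h it left 1 higher and 1 lower, beside 628 and 304 of all 6234 genes. In the interaction it left 13 higher, beside 799.

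Scaling mattered most at 4 h. With library totals alone, HASX over WT had 1 higher gene and a median of -1.09 at 4 h and a median of -1.21 at 1 h, HASX at 4 h over 1 h had 7 higher and 15 lower with a median of -0.17, and the interaction had 3 negative calls and a median of 0.50. Under it the WT at 1 h had 2 genes higher and 1 lower. The median of all genes moved with it, and the distance between the medians of the 35 genes and of all genes at 4 h was -0.66 under library totals and -0.64 under TMM. Signs reversed under library totals for tef3 (-0.14), gcn2 (-0.48), fil1 (-0.089) and tuf1 (-0.03) in HASX over WT at 4 h. In HASX at 4 h over 1 h they reversed for tif223 (-0.22), tif302 (-0.15), tif308 (-0.16), tif313 (-0.15), tif6 (-0.17), int6 (-0.18), sce3 (-0.27), dph1 (-0.23) and mti2 (-0.34), and in the interaction for tuf1 (-0.35). Upper-quartile scaling gave 2 genes higher and 1 lower in the WT at 1 h, medians of -0.21, -0.80 and -0.90 for the WT at 2 h, at 4 h and at 4 h over 1 h, and of -1.06 and -0.75 for HASX over WT at 1 and 2 h. DESeq2 and its size factors gave a median of -1.05 in HASX over WT at 1 h. Fitting only the groups compared gave 5 lower genes in the WT at 2 h, 2 higher in HASX at 1 h, 3 higher at 4 h and 6 higher at 4 h over 1 h.

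Leaving out 1 library at a time gave 0 to 1 genes higher, 0 to 3 lower and a median of -0.11 to 0.00 in the WT at 1 h, and 0 to 2 higher and 1 to 14 lower at 2 h. For the WT at 4 h the median ran from -0.71 to -0.62. HASX over WT had 1 to 2 genes higher at 1 h, with a median of -1.24 to -1.06, and 1 to 2 higher at 2 h. Without HASX 4 h replicate 3 the sign in HASX over WT at 4 h reversed for tif211 (-0.68, against -0.68 to 1.40 over single libraries left out) and eft201 (0.22, against -0.29 to 0.22). The replicate block, whose numbers are not stated to pair these libraries, gave 7 lower genes in the WT at 2 h, a median of -0.60 in HASX over WT at 4 h and 0.18 in HASX at 4 h over 1 h, and changed no other count. It ended the calls of tif52 in the WT at 2 h (adjusted p = 0.0628) and in HASX over WT at 4 h (adjusted p = 0.056), and added tef102 there (adjusted p = 0.0469). The cause of these shifts was not tested. Shares of all genes called under the other scalings and fits are not given here, so these counts cannot be read against them. Depth limits tif1102 most, with counts down to 110, and intervals here cover neither the division of reads between gene copies nor strand.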

Other observations

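Mitochondrial translation factors work on the organelle's own ribosomes. In HASX over WT 3 of their 10 genes were higher and 2 lower at each of 1, 2 and 4 h, with medians of -0.08, 0.26 and 0.13 on the log2 scale. Of all genes 36.4, 37.5 and 38.3% were higher and 37.8, 39.3 and 37.3% lower at these hours. In the WT at 4 h over 0 h all 10 changes were negative and 4 were called lower by edgeR, where 25.0% of all genes were. No test of a difference from the 35 genes was made. The higher genes in HASX included tsf1, for the organelle's exchange factor of EF-Tu, at 1.08, 1.92 and 2.25 at 1, 2 and 4 h, a gene chosen after its values were seen.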
